A study of Mus musculus with 15 samples.

Results

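Glutamine (Gln) can be taken from a tumor cell by leaving it out of the medium, or its use can be blocked while it is still present. These 6 RNA-seq libraries, of the 15 in the series, set these treatments against each other in HY19636 cells, a murine pancreatic ductal adenocarcinoma (PDAC) line. In 3 libraries the cells had received 6-diazo-5-oxo-L-norleucine (DON) at 25 µM for 24 h, and in the other 3 they had been kept without Gln for 24 h. The members were taken by treatment label alone, and the 3 control (CNT) libraries of the same line serve as a reference for the level of each gene. HY19636 is 1 primary line from tumors of C57BL/6 mice in which Cre, driven by the pancreatic gene Ptf1a, acts on conditional alleles, p53 among them. All cells were grown in 2D in DMEM with 10% FBS, and the labels do not say which vehicle the control cells received. Nothing says whether the 3 libraries of a group came from separate cultures, so p-values measure only the spread between these libraries, which may be technical. DON libraries held 25224177, 32532731 and 35420749 reads, Gln-free libraries 28169155, 28395416 and 28921825 reads and control libraries 27111586, 27233914 and 48155949 reads, of which each may be 1 mate of a pair.

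Gln gives cells carbon through glutaminase and gives the nitrogen of its amide group through a family of amidotransferases, which make purine and pyrimidine precursors, asparagine, NAD and glucosamine-6-phosphate. DON is a Gln analog that reacts covalently with the Gln site of these enzymes. Cells short of amino acids raise ATF4 and its targets through the integrated stress response, and growth factor receptors signal through RAF, MEK and ERK. The comparison therefore asks which transcripts differ between cells whose Gln enzymes were blocked and cells that lacked the substrate.

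All values are normalized counts, which are reads divided by 1 size factor per library, with the factors estimated over the 9 cell libraries together because the authors had normalized each treatment in a separate table. Differences are DON minus Gln-free on the scale log2(normalized count + 1), so they understate the change of genes with few counts. A gene was called at an adjusted p under 0.05 (limma, Benjamini-Hochberg over all genes with a mean of at least 10 in the 6 libraries). Keratins of the pancreatic duct were abundant in all 9 libraries, at 12863, 12354 and 11019.8 normalized counts of Krt19 in DON libraries and 27628, 25347 and 26963 in Gln-free libraries. In such bulk samples fewer cells of a type and less RNA per cell cannot be told apart. Summed over 6 macrophage and other leukocyte markers, normalized counts were at most 4.13 in a DON library and 5.28 in a Gln-free library, and Adgre1, Cd3e and Lyz2 were at 0 in all 6. Acinar markers summed to at most 1.82 and 2.03, with 4 of 5 at 0, and red cell markers to at most 6.60 and 0. Fibroblast markers, of which Pdpn, Dcn, Lum and Col3a1 were at 0, were carried by the receptor gene Pdgfra, which is described with the receptors. Endothelial markers summed to 18.2 to 26.4 in DON libraries and 38.0 to 53.7 in Gln-free libraries. In control libraries the sums reached 17.1 for leukocyte, 9.75 for acinar, 36.6 for red cell and 121 for endothelial markers.

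DON and Gln-free cells differed in most of the genes they expressed. Of 13383 genes tested, 9207 were called (68.8%), of which 4524 were higher in DON cells (33.8% of genes tested) and 4683 lower (35.0%). The difference was at least 2-fold in 3024 called genes (22.6%), with 1475 higher (11.0%) and 1549 lower (11.6%). Against this, the median difference of all genes was -0.01 and the median residual SD between libraries of a group was 0.12. The 3 DON values and the 3 Gln-free values did not overlap for 9668 genes (72.2%), which for any single gene is p = 0.1 by an exact two-sided permutation test, and no smaller value can be had from 3 libraries a group. With so many genes called, a list of genes is described here by its counts in each direction, which are to be read against 33.8% and 35.0%. In the authors' separate tables, 68.1% of genes were called between DON and control cells and 69.4% between Gln-free and control cells by the same test. These comparisons share the control libraries, so values from them are given only side by side.

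The largest differences come first, among genes with a mean of 100 or more and no overlap between the groups. In the negative direction Cyp1a1 had the largest (ENSMUSG00000032315, chromosome 9 from 57687928 to 57703824 in GENCODE vM21 on GRCm38, the annotation used for all gene positions here), a cytochrome P450 known as a target of the aryl hydrocarbon receptor. It had 11.7, 14.6 and 21.5 normalized counts in the DON libraries, 836, 678 and 679.6 in the Gln-free libraries and 20.8, 24.4 and 26.9 in the controls, a log2 difference of -5.47 (standard error 0.22, adjusted p = 7.04e-11, limma). DON cells were thus near the level of control cells and only Gln-free cells stood apart. Gadd45g, a growth arrest gene, had 348, 386 and 356 normalized counts with DON and 9394, 7909 and 7339 without Gln, where controls had 678, 647 and 625. The secreted activin antagonist Fst had 21.1, 12.7 and 25.6 with DON, 318, 342 and 336 without Gln and 40.3, 69.5 and 57.5 in controls. In both, the Gln-free cells were far above the controls and the DON cells below them.

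The semaphorin gene Sema3c, the netrin receptor gene Unc5c and the nuclear receptor gene Rorb showed the same order of groups. Sema3c had 619, 564 and 719.6 normalized counts with DON, 13717, 12322 and 13172 without Gln and 3202, 3472 and 4953 in controls. Unc5c had 4.69, 5.46 and 3.30 with DON and 205, 219 and 178 without Gln, a log2 difference of -5.22, and Rorb had -5.21. For Frmd4b, Akr1c19 and Angptl4 the Gln-free cells were at or below the control level and the DON cells lower still. Frmd4b had 44.5, 44.6 and 44.6 normalized counts with DON, 807, 815 and 695 without Gln and 764, 721 and 786 in controls. Angptl4, a secreted inhibitor of lipoprotein lipase, had 216, 96.5 and 199.7 with DON, 2767, 2475 and 3468 without Gln and 6532, 7583 and 5480.2 in controls, with DON library 2 lowest. Akr1c19 (-4.28) belongs to a family of similar aldo-keto reductases, so its reads may be shared with relatives. The other members of the 12 largest negative differences were Ndst3 (-4.43), Prss35 (-4.20) and the ErbB ligand gene Ereg (-4.38).

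In the positive direction the genes showed other orders of the groups. Plin4, a perilipin that coats lipid droplets, had 2091, 1994 and 2385 normalized counts with DON, 50.7, 67.9 and 109 without Gln and 612, 507 and 431 in controls, so its Gln-free level was below and its DON level above that of control cells (difference 4.88). The lysosomal membrane glycoprotein gene Cd68 had 809, 835 and 784 with DON and 33.8, 19.9 and 32.4 without Gln (4.81), while the leukocyte markers given above were at or near 0 in all 6 libraries. Gpnmb, another glycoprotein of lysosomes and melanosomes, had 718, 725 and 716 with DON, 35.9, 43.9 and 40.5 without Gln and 36.6, 43.9 and 24.9 in controls. Its Gln-free and control values overlapped, and only the DON cells differed.

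Aldh1l1, a cytosolic folate enzyme, and Slc16a3, the lactate exporter MCT4, had another arrangement, with both treatments below the controls and the Gln-free cells lowest. Aldh1l1 had 524, 254 and 514 normalized counts with DON, 10.6, 27.2 and 22.3 without Gln and 825, 1081 and 784 in controls. Slc16a3 had 402, 243 and 381 with DON, 43.3, 35.5 and 22.3 without Gln and 2472, 3349 and 2242 in controls. DON library 2 was lowest of its group in both. The small ribosomal RNA of mitochondria, mt-Rnr1, had 73497, 39156 and 78778 with DON and 5543, 5866 and 3191 without Gln. DON library 2 was lowest of its group here too, and the reads of this RNA can be shared with nuclear copies of mitochondrial DNA. Try5 (5.29) is one of many near-identical trypsinogen genes and its reads are uncertain between copies. Aoc3 (3.72), Rdm1 (3.25), Haghl (3.21) and the transcripts 4930432K21Rik (3.24) and Brd3os (3.23) complete the 12, and Brd3os lies opposite Brd3, from whose reads it can be told only where strand was used.

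**Figure D1:**
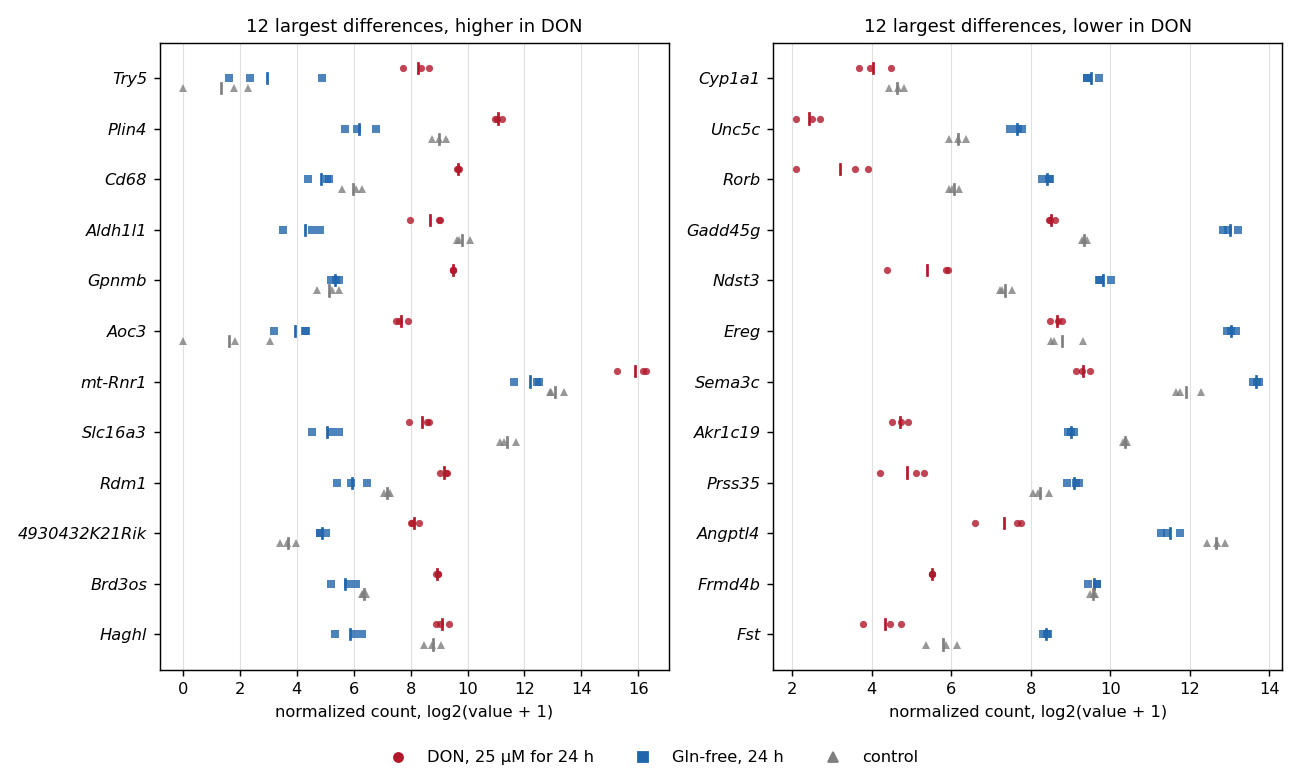
The 12 largest differences in each direction, with log2(normalized count + 1) on the horizontal axis and 1 point per library (circles DON, squares Gln-free, triangles control, vertical ticks group means). DON and Gln-free points do not overlap for any of the 24 genes, while the control points lie near DON for some (Cyp1a1, Ereg), near Gln-free for others (Gpnmb, Frmd4b) and outside both for Slc16a3 and Angptl4.

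Across 38 gene lists with 894 genes tested, 108 called genes had their 3 DON values and their 3 Gln-free values on opposite sides of all 3 control values (12.1%, against 9.12% of all 13383 genes tested). The lists were chosen with earlier results of these data known, so the gap between these shares is no result about the lists. The 108 genes are used only to pick genes to describe. The 8 of them with the largest difference were Lif (-3.58), Oga (-3.49), Phlda1 (-3.49), Areg (-3.04), Txnip (-3.03), Pdgfra (-3.0), Fos (-2.83) and Cgas (-2.57). All 8 were below control with DON and above control without Gln. List medians ran from -1.57 for cytokines and chemokines to 0.90 for serine synthesis and one-carbon metabolism. Only list members that passed the filter were tested, and a gene with few counts in 1 group can pass it through the other group.

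**Figure D2:**
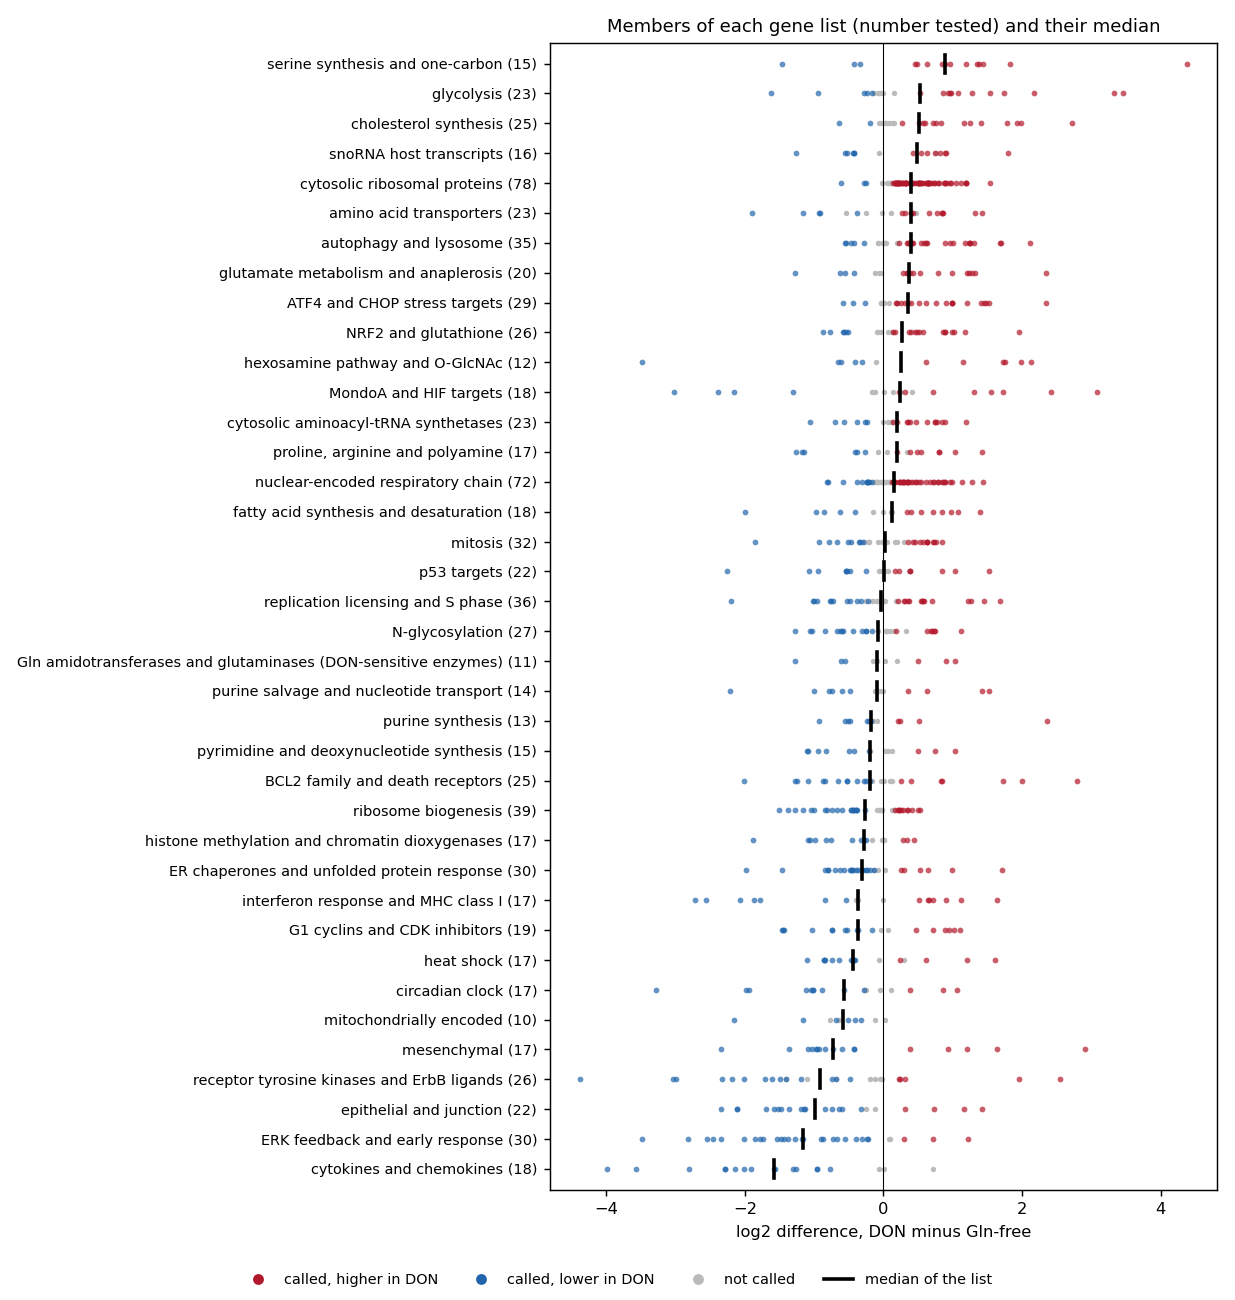
Log2 difference (DON minus Gln-free, horizontal axis) of every tested member of 38 gene lists, sorted by list median. Red points were called and higher in DON, blue points called and lower, gray points not called, and black ticks are medians, which run from -1.57 for cytokines and chemokines to 0.90 for serine synthesis and one-carbon metabolism.

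Genes that ERK signaling induces were mostly lower in DON cells than in Gln-free cells. Of 30 tested ERK feedback and early response genes, 25 were lower and 3 higher, with a median of -1.17, and 16 were at least 2-fold lower. Of 26 receptor tyrosine kinase and ErbB ligand genes, 14 were lower and 5 higher, with a median of -0.92. For both lists the share called lower was above the 35.0% of all genes.

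Among the ligands, Ereg (ENSMUSG00000029377, chromosome 5 from 91074622 to 91093646) encodes epiregulin, which binds EGFR and ErbB4. It had 439.5, 413 and 357 normalized counts in DON libraries, 9082, 8319.8 and 7781 in Gln-free libraries and 360.1, 383 and 631 in controls, so Gln-free cells had 20.8 times the mean of DON cells (log2 difference -4.38, standard error 0.085, adjusted p = 5.69e-14, limma). DON and control values overlapped and the Gln-free values stood above both. Areg, amphiregulin, a ligand of EGFR, had 1436, 1176 and 1421 with DON, 11006, 10877 and 11129 without Gln and 1599, 1478 and 1673 in controls (-3.04). Nrg1, neuregulin, a ligand of ErbB3 and ErbB4, had 633, 805 and 588 with DON and 3487, 2851 and 2825 without Gln (-2.18), with controls at 563, 619 and 618.

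Receptors differed in both directions. Egfr (ENSMUSG00000020122, chromosome 11 from 16752203 to 16918158) had 89.1, 90.1 and 101 normalized counts with DON, 451, 519 and 448 without Gln and 234, 356 and 288 in controls, and the 3 groups did not overlap. Pdgfra had 121, 152 and 137 with DON, 1091, 1115 and 1072 without Gln and 539.6, 606 and 449 in controls, and it made up nearly the whole sum of the fibroblast markers, which was 121 to 152 with DON, 1072 to 1117 without Gln and 450.1 to 606 in controls. Epha2 (-2.02) and the HGF receptor Met (-1.71) were lower as well. Fgfr1, an FGF receptor, had 178, 227 and 226 with DON and 28.5, 34.5 and 42.5 without Gln, a difference of 2.56, the highest of the list. Axl, a receptor of the TAM family, was abundant and differed little, at 10850.5, 12367 and 11558 with DON and 10136, 9578 and 10126 without Gln (0.22, adjusted p = 0.00389, limma). Erbb3 was lower in DON cells (-0.74), and Erbb2 had 1029, 1040.4 and 1139.7 with DON and 1162, 1143 and 1375 without Gln, which was not called (95% interval of the difference -0.38 to -0.01, adjusted p = 0.0619, limma), though it was in 4 of 22 alternatives, among them without DON library 3 (0.0414) or Gln-free library 2 (0.048).

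Downstream of ERK, Phlda1 (ENSMUSG00000020205, chromosome 10 from 111506286 to 111508645) had 568, 573 and 555 normalized counts with DON, 6931, 6094 and 6067 without Gln and 2404, 2602 and 2196 in controls, a difference of -3.49 (standard error 0.07, adjusted p = 7.37e-14, limma). DON cells were below and Gln-free cells above all controls. Among transcription factors of the AP-1 and EGR families, Fos had 44.5, 27.3 and 51.2 with DON and 314, 268 and 284 without Gln, Fosl1 had a difference of -2.35, Egr2 -2.55 and Egr3 -2.46. Myc, which ERK signaling also sustains, had 8040.0, 8896 and 8454 with DON, 23827, 22746 and 22067 without Gln and 4291, 4258 and 3838 in controls, so that it was above control in both treatments and higher without Gln. The phosphatases that switch ERK off were divided. Dusp5 (-2.01) and Dusp6, with 4774, 3716 and 4794 with DON and 14737, 15166 and 14150.1 without Gln (-1.74), were lower in DON cells, and Dusp4 was higher, with 18036, 18951 and 18893 against 7350.5, 8206 and 8529 (1.22). The AP-1 member Jund was also higher (0.71).

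**Figure D3:**
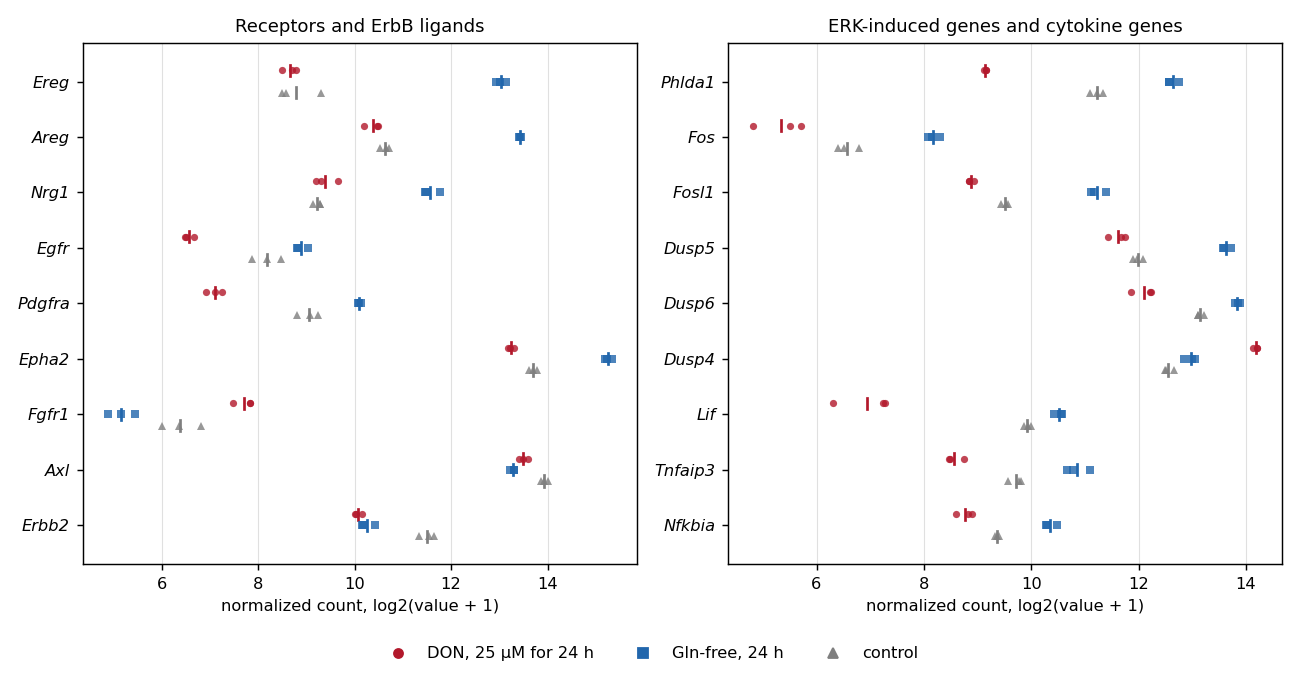
Receptors and ErbB ligands (left) and ERK-induced and cytokine genes (right), with log2(normalized count + 1) on the horizontal axis, 1 point per library and ticks at group means (circles DON, squares Gln-free, triangles control). Gln-free points lie to the right of DON points for Ereg, Areg, Nrg1, Egfr, Phlda1, Fos and Dusp6, and to the left for Fgfr1 and Dusp4.

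Cytokine genes and their feedback inhibitors were mostly lower in DON cells. Of 34 genes in the list, only 18 passed the filter on the mean of the 6 libraries. Of these 18, 15 were called lower and 0 higher, 12 of them at least 2-fold lower, with a median of -1.57. Over the alternatives 10 to 17 were lower, with a median of -1.64 to -1.20. A gene with few counts in DON cells can pass the filter through its Gln-free values alone, which fixes its direction. The count of higher members was 0 also at an unadjusted p under 0.05 and by edgeR and DESeq2, and 1 without the filter on low values or without DON library 2. Lif, a cytokine of the IL-6 family, had 150.0, 78.3 and 154 normalized counts with DON, 1519, 1372 and 1511 without Gln and 978, 1014 and 927 in controls (-3.58, adjusted p = 1.07e-09, limma). Il33, an alarmin, had 136, 113 and 94.1 with DON and 772, 797 and 814 without Gln, both below the controls at 1619.9, 1538 and 1908. The neutrophil growth factor gene Csf3 had only 4.69, 3.64 and 6.60 with DON against 87.7, 94.0 and 95.2 without Gln. It passed the filter only through its Gln-free values. The adhesion molecule gene Vcam1 (-2.29) was lower too.

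Feedback inhibitors of NF-κB, which are themselves induced by it, were among these genes. Tnfaip3, the ubiquitin editor A20, had 356, 428 and 353 normalized counts with DON, 2185, 1630.1 and 1751 without Gln and 756, 879 and 898 in controls, and the groups did not overlap. Nfkbia, the inhibitor IκBα, had 477, 451 and 389 with DON and 1426, 1256 and 1235 without Gln (-1.57), with controls at 657, 678 and 643. Its promoter is shown because it carries the letters GGGANTTTCC, a form of the κB motif, on the strand opposite to the one printed. The 250 bases before its start in RefSeq (GRCm38.p6, chr12:55492648-55492897, minus strand) read as follows, with the match in capitals.
Nfkbia: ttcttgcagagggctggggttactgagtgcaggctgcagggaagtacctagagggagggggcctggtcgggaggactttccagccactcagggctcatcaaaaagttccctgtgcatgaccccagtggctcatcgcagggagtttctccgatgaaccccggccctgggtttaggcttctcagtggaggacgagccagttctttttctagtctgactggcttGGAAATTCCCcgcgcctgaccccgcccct
Searched on both strands, this motif was in 6 of 25 cytokine genes with a promoter entry (24%) and in 0.414% of all 27025 genes with one. Of the 6, 3 passed the filter (Csf1, Cxcl3 and Nfkbia) and all 3 were called lower in DON cells. In the whole list, 15 of 18 tested genes were called lower. The direction of genes with the motif outside the list is not given here. A match is a description of the letters and no proof of binding.

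The hexosamine pathway makes UDP-GlcNAc from fructose-6-phosphate and the amide nitrogen of Gln, and O-GlcNAc is the sugar that Ogt attaches to nuclear and cytosolic proteins and Oga removes. The list showed no common direction, with 6 genes higher and 5 lower among 12 tested and a median of 0.25 (0.62 with a filter at a mean of 100, 0.47 without DON library 2 and 0.45 without Gln-free library 2), yet 6 of its called genes differed by at least 2-fold. On the synthesis route, Gfpt1, the amidotransferase that uses Gln, had 4361, 4002 and 4094 normalized counts with DON and 6449, 6478 and 6155 without Gln (-0.62). Uap1 (-0.66) and Pgm3 (-0.31), which act after it, were also lower, though the values of Pgm3 overlapped and its call was lost in 6 of 22 alternatives, among them leaving out DON library 2 or 3 or Gln-free library 1 or 2 (adjusted p up to 0.13). Higher with DON were genes that return or recycle amino sugars, namely the glucosamine-6-phosphate deaminase genes Gnpda1 (1.75) and Gnpda2 (0.62), the deacetylase gene Amdhd2 (1.72) and the GlcNAc kinase gene Nagk (1.14). The call of Gnpda2 was lost without Gln-free library 1 (adjusted p = 0.0549, limma) and at a threshold of 0.01. Gnpda1 had 4054, 3930.3 and 3627 with DON, 1117, 1138 and 1184 without Gln and 1200.0, 1281 and 1122 in controls.

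Oga and Ogt, the enzymes that remove and add O-GlcNAc, differed in opposite directions. Oga had 1042, 1109.5 and 1169 normalized counts with DON, 12342, 12898 and 12103 without Gln and 5326, 5762 and 6086 in controls. Gln-free cells therefore had 11.2 times the mean of DON cells (log2 difference -3.49, standard error 0.061, adjusted p = 5.09e-14, limma). In the authors' separate tables the log2 difference from control was -2.38 with DON and 1.14 without Gln, both called. Ogt (ENSMUSG00000034160, chromosome X from 101640060 to 101684351) had 10371, 9928 and 10079.8 with DON, 2509, 2621 and 2559 without Gln and 2595, 2510.2 and 3120.2 in controls, a difference of 1.98 (adjusted p = 1.42e-12, limma). Gln-free and control values of Ogt overlapped, and its difference from control was 1.88 with DON (called) and -0.07 without Gln (not called). Uap1l1, a relative of Uap1, had 13891, 13111 and 13162 with DON and 3394, 2878 and 2934 without Gln (2.13), with controls between them at 6253, 5871 and 4838.

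Genes of the enzymes that DON can block were called in both directions. Of 11 tested Gln amidotransferase and glutaminase genes, 3 were higher in DON cells and 3 lower. Cad, the first enzyme of pyrimidine synthesis, had 7077, 7943 and 7361 normalized counts with DON and 3695, 3610.3 and 3647 without Gln (1.03), and asparagine synthetase Asns had 16132, 15576 and 15153 with DON and 8840.0, 8768 and 7601 without Gln (0.90). Gmps, which aminates XMP to GMP, was lower (-0.55). No call was made for Ppat, the first enzyme of purine synthesis (-0.15, 95% interval -0.30 to -0.01), for Pfas (-0.10, -0.25 to 0.06), for Ctps (0.02, -0.16 to 0.19), for Nadsyn1 (0.20, -0.12 to 0.52) or for Gls2 (-0.09, -0.47 to 0.29). These intervals, which are not adjusted for the number of genes, leave room for differences of the size of their bounds, and Ppat was called in 3 of 22 alternatives, among them without Gln-free library 3 (adjusted p = 0.0123, limma). Ctps2 was called higher (0.50, adjusted p = 0.0127, limma), but its call was lost without DON library 1 (adjusted p = 0.0579) and without DON library 3 (0.0729), and also with no trend of the prior variance (0.0552) and at a threshold of 0.01.

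Beside them in the purine route, Impdh2, the IMP dehydrogenase that supplies GMP synthesis, had 34293, 38022 and 30934 normalized counts with DON, 6994, 6468 and 6492 without Gln and 11198, 10702 and 8946 in controls. The log2 difference was 2.37 (standard error 0.069, adjusted p = 3.25e-12, limma), and the DON values lay above and the Gln-free values below the controls. Over all 13 purine synthesis genes 4 were higher and 7 lower, with a median of -0.18, and Impdh2 was the only one at 2-fold. Prps1, which makes the ribose phosphate donor, was lower (-0.93). In pyrimidine and deoxynucleotide synthesis 3 genes were higher and 7 lower of 15. The ribonucleotide reductase gene Rrm1 had 1077, 1198 and 1059.6 with DON and 2543, 2220.5 and 2371 without Gln, both far below the controls at 6353, 6756 and 6200.1. Among salvage genes, where 4 were higher and 6 lower of 14, the uridine phosphorylase gene Upp1 had 216, 158 and 175 with DON and 834, 758 and 951 without Gln (-2.21) and the uridine kinase-like gene Uckl1 was higher (1.53).

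**Figure D4:**
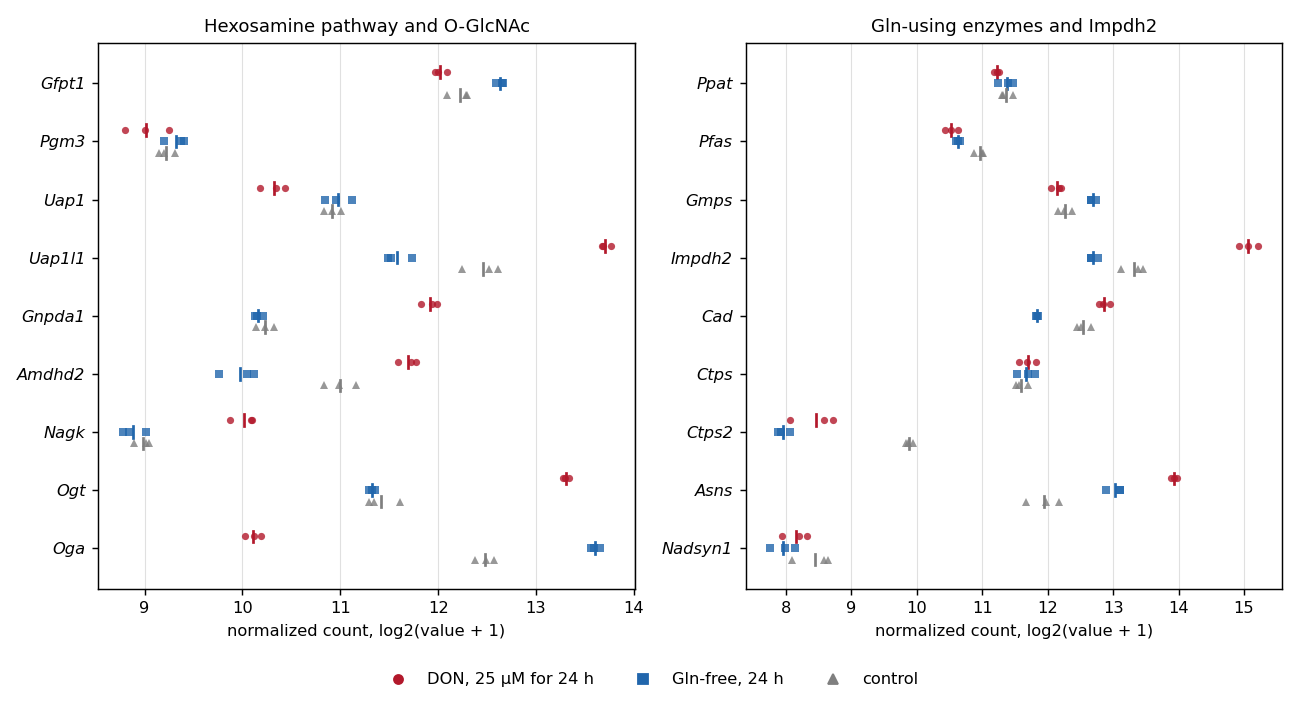
Hexosamine pathway genes (left) and Gln-using enzymes with Impdh2 (right), with log2(normalized count + 1) on the horizontal axis, 1 point per library and ticks at group means (circles DON, squares Gln-free, triangles control). Oga lies lower with DON than without Gln and Ogt, Uap1l1, Gnpda1 and Impdh2 lie higher, while the groups overlap for Ctps and Nadsyn1.

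Stress genes that ATF4 and CHOP induce were more often higher with DON. Of 29 ATF4 and CHOP targets tested, 19 were higher in DON cells and 3 lower, with a median of 0.35. The factors at the head of the response were above control in both treatments and differed little between them. Atf4 had 27876, 27623 and 27224 normalized counts with DON, 22850.0, 22013 and 20159 without Gln and 9295, 8412 and 8212 in controls (0.35), and Atf5 differed by 0.26. Ddit3, which encodes CHOP, had 11398, 13087 and 10346 with DON and 10826, 10128 and 9477 without Gln, where controls had 474, 446 and 461. Its difference of 0.19 was called (adjusted p = 0.0402, limma), but the call was lost in 8 of 22 alternatives, among them leaving out DON library 1 or 2 or Gln-free library 2 or 3, with adjusted p up to 0.203 (without DON library 2, difference 0.10). Atf3 was not called (0.08, 95% interval -0.10 to 0.26), and Atf6 (-0.14) lost its call in 15 of 22 alternatives, with adjusted p up to 0.782. Ppp1r15a, the phosphatase subunit GADD34 that ends the response, was slightly lower with DON (-0.26), and Cebpb (-0.59) and Cebpg (-0.44), partners of ATF4, were the other genes of the list called lower.

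Of the targets, 6 were at least 2-fold higher. Gadd45a (ENSMUSG00000036390, chromosome 6 from 67035096 to 67037457) had 4242, 4358 and 4444 normalized counts with DON, 1431, 1481 and 1649 without Gln and 598, 499.6 and 621 in controls, a difference of 1.52 (standard error 0.067, adjusted p = 1.4e-10, limma). Pck2, mitochondrial phosphoenolpyruvate carboxykinase, had 9348, 9716 and 9266 with DON, 1744, 1896 and 1915 without Gln and 4667, 4546 and 3574 in controls (2.35). Unlike Gadd45a, which was above control in both treatments, Pck2 was above control with DON and below it without Gln. Chac1, which degrades glutathione, had 3722, 3417 and 3722 with DON and 1426, 1402 and 1274 without Gln (1.40), and Cth, cystathionine lyase, had 1.45. The promoter of Pck2 is shown because it holds the letters TGATGNAA, a common form of the C/EBP-ATF response element, on the strand opposite to the one printed.
Pck2: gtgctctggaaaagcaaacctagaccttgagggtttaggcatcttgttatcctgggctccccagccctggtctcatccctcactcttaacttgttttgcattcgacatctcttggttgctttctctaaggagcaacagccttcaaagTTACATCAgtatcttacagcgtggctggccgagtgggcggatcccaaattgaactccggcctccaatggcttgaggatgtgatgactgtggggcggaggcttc
These are the 250 bases before its start (RefSeq, GRCm38.p6, chr14:55540016-55540265, plus strand), with the match in capitals. The motif, on either strand, was in 9 of 26 promoters of the list (34.6%) and in 3.91% of all genes with an entry. Of the 9, 8 were tested, 6 were called higher in DON cells and 2 were not called. In the whole list, 19 of 29 tested genes were called higher and 3 lower. The list was made of ATF4 and CHOP targets, so the share of the motif in it is no result. The direction of genes with the motif outside the list is not given here, and a match is no proof of binding.

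Serine synthesis and one-carbon metabolism, which feed purine and thymidylate synthesis, had the highest median of all lists, 0.90. Of 15 genes, 12 were higher with DON and 3 lower, and 6 were at least 2-fold higher. The cytosolic folate enzyme gene Aldh1l1 (4.38) was first, followed by genes of mitochondrial folate enzymes. Aldh1l2 had 5817, 6099 and 5511 normalized counts with DON, 1591, 1805 and 1537 without Gln and 425, 431 and 396 in controls (1.82). Mthfd2 had 16637, 18388 and 16286 with DON and 6791, 6580.0 and 6288 without Gln (1.38), and Shmt2 had 15490.5, 15134 and 15386 with DON and 5825, 5715 and 5515 without Gln (1.43). Psph, the phosphatase that completes serine synthesis, was higher (1.35). The glycine cleavage gene Gldc was lower, at 1254, 1362 and 1084 with DON, 3571, 3291 and 3299 without Gln and 4737, 4526 and 3929.7 in controls (-1.46).

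Enzymes that carry glutamate carbon into the citric acid cycle were in part higher with DON. Of 20 genes 13 were higher and 4 lower, with a median of 0.36. The alanine transaminase gene Gpt2 had 5189, 5295 and 5175 normalized counts with DON and 2187, 2349 and 2226 without Gln (1.21), and the isocitrate dehydrogenase genes Idh1 (1.33) and Idh2 (1.27) were higher. Got1, an aspartate transaminase, was lower (-0.56). Glul, glutamine synthetase, had 2628, 2463 and 2558 with DON and 2821, 2757 and 2773 without Gln, both far below the controls at 10363, 10423 and 8776. The difference between the treatments was not called (-0.13, 95% interval -0.25 to -0.00038, adjusted p = 0.0696, limma). It was called with the tables joined by the ratio of the control columns (-0.16, adjusted p = 0.027, limma).

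Amino acid transporters had 12 genes higher and 5 lower of 23 tested. Slc38a2, a Gln transporter known to be induced by amino acid lack, was lower with DON, at 11610.0, 11217 and 12672 normalized counts against 22194, 24187 and 21174 without Gln (-0.93). The glycine transporter Slc6a9 (1.43), the lysosomal transporter Slc38a9 (1.32) and the heavy chain Slc3a2 (0.84) were higher, while the taurine transporter Slc6a6 (-1.16) and the cationic amino acid transporter Slc7a2 (-1.90) were lower. Among cytosolic aminoacyl-tRNA synthetases 13 of 23 were higher and 6 lower. The largest difference was that of Qars, which charges tRNA with Gln, at 7333, 7700.4 and 7330.0 with DON, 3119, 3276 and 3373 without Gln and 8459.8, 8550.4 and 6866 in controls (1.20). DON and control values of Qars overlapped and Gln-free values were lower. Farsb, a subunit of the phenylalanine enzyme, had the largest difference downward (-1.06). Polyamine genes were divided, with the spermidine acetyltransferase gene Sat1 higher (1.42) and Amd1 (-1.18) and Azin1 (-1.26), which favor polyamine synthesis, lower. In the list of proline, arginine and polyamine genes 8 were higher and 6 lower of 17.

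Chaperones of the endoplasmic reticulum were mostly higher in Gln-free than in DON cells. Of 30 genes tested, 21 were lower with DON and 6 higher, with a median of -0.31. Hspa5 (ENSMUSG00000026864, chromosome 2 from 34771970 to 34777547), the chaperone BiP, had 42055, 45769 and 40653 normalized counts with DON, 135515, 116562 and 103286 without Gln and 22627, 21992 and 22983 in controls. It was above control in both treatments, and Gln-free cells had 2.77 times the mean of DON cells (log2 difference -1.46, standard error 0.083, adjusted p = 1.44e-09, limma). Hsp90b1, the chaperone GRP94, had 13019.9, 14199 and 11097 with DON and 25462, 22787 and 18832 without Gln (-0.80), and Dnajc3 (-0.84) and Creld2 (-0.81) were lower with DON as well. The coat protein gene Sec24d had the largest difference (-1.99), with Gln-free values at 4015, 3905 and 3427 near the controls at 3860.0, 4245 and 3661. Derl3 (1.71) and P4hb (1.00) went the other way.

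Genes of this kind are known to carry the ER stress response element, spelled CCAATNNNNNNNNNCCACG, and the promoters of Hspa5 and Hsp90b1 are shown because they carry it and encode 2 abundant chaperones. The 250 bases before the start (RefSeq, GRCm38.p6) are at chr2:34771840-34772089, plus strand, and chr10:86705445-86705694, minus strand, and matches on either strand are in capitals.
Hspa5: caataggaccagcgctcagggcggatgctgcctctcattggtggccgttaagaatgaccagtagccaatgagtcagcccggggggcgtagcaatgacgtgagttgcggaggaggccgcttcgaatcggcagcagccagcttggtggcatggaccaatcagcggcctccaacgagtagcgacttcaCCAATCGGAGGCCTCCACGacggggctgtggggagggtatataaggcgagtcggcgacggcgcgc
Hsp90b1: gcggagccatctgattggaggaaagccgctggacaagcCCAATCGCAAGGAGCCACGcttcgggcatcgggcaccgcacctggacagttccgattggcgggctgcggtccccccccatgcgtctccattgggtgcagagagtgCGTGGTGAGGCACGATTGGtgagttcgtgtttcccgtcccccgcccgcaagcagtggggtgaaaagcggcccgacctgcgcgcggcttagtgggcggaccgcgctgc
Hsp90b1 held 2 matches and Hspa5 held 1, which began 65 bases before the start. In the list, 9 of 26 genes with a promoter entry held the element (34.6%), against 0.130% of all genes. All 9 were tested, and 8 of them (Hspa5, Hsp90b1, Pdia6, Calr, Canx, Dnajc3, Creld2 and Syvn1) were called lower with DON and 1 (Derl3) higher. In the whole list, 21 of 30 tested genes were called lower and 6 higher. The list holds genes of the kind known to carry the element, so its share there is no result. The direction of genes with the element outside the list is not given here, and a match is no proof of binding. The call of Pdia6 was lost in 13 of 22 alternatives (adjusted p up to 0.278), that of Calr in 7 (up to 0.126) and that of Canx in 1 (0.0635), among them for Pdia6 and Calr leaving out DON library 1 or 3 or Gln-free library 1 or 2. Heat shock genes had 11 members lower and 4 higher of 17. Among the lower ones were Hspa1a (-1.10), Hsp90aa1 (-0.86), Hspa1b (-0.86) and Hsph1 (-0.84). The call of Hspa1a was lost without Gln-free library 1 (adjusted p = 0.056, limma). The mitochondrial chaperonin genes Hspd1 (0.24) and Hspe1 (0.61) were among the higher ones. Some abundant members went against the list, since Hspa8 had 107358, 121630.0 and 102487 with DON and 37906, 34284 and 36279 without Gln (1.61) and Hsp90ab1 had 1.21. DON values of Hspa8 overlapped those of the controls, which were 107759, 103653 and 91856. N-linked glycosylation genes, which use the product of the hexosamine pathway, had 7 members higher and 13 lower of 27.

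Lysosomal genes were more often higher in DON cells. In the list of autophagy and lysosome genes 22 of 35 were higher and 5 lower, 9 of them at least 2-fold higher, with a median of 0.40. Ctsa, protective protein cathepsin A, had 9626, 9214 and 9826 normalized counts with DON, 2044, 2184 and 2386 without Gln and 5110.1, 5044 and 4148 in controls (2.12, adjusted p = 5.31e-12, limma). The calcium channel gene Mcoln1 had 4375, 4422 and 4507 with DON, 1391, 1369.9 and 1356 without Gln and 1368, 1437 and 1251 in controls (1.69), so that Gln-free and control cells overlapped. The glycosidase genes Gaa (1.68) and Hexa (1.24) and the protease gene Ctsb (1.25) were higher too. Tfeb, which encodes a transcription factor for such genes, was itself lower with DON (-0.56).
The promoter of Mcoln1 (RefSeq, GRCm38.p6, chr8:3500269-3500518, plus strand, 250 bases before the start) holds TCACGTGA, the core of the motif bound by TFEB and its relatives, here in capitals.
Mcoln1: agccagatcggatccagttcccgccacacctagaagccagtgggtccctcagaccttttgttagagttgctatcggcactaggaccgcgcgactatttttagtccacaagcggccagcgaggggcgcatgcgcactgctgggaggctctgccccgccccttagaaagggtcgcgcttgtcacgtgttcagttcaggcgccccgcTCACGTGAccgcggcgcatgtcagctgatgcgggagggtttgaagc
This palindrome, which reads the same on both strands, was in 4 of 26 genes of the list with a promoter entry (15.4%), against 0.907% of all genes and 1.84% of the genes tested. The 4 were Ctsa, Ctsd, Mcoln1 and Atp6v1a, all called higher with DON, as were 22 of the 35 tested genes of the list. The direction of genes with the palindrome outside the list is not given here.

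Genes of cholesterol synthesis were more often higher with DON. Of 25 genes, 14 were higher in DON than in Gln-free cells and 2 lower, with a median of 0.51. Tm7sf2, a sterol reductase, had 682, 625 and 609 normalized counts with DON, 88.7, 99.3 and 101 without Gln and 1870.2, 1853 and 1719 in controls (2.72), so it was below control in both treatments and less so with DON. Fdps (1.99), Acat2 (1.93) and Mvd (1.78) showed the same order of the groups. In fatty acid synthesis and desaturation 8 genes were higher and 5 lower of 18, with the desaturase gene Fads2 higher (1.07) and the elongase gene Elovl6 lower (-1.99).

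Glycolytic genes were more often higher with DON as well. Of 23 genes, 12 were higher with DON and 5 lower, and their median of 0.52 became 0.15 with a filter at a mean of 100 and with no filter. Gapdh had 72881, 76005 and 64318 normalized counts with DON, 29123, 29330.5 and 28874 without Gln and 127228, 140712 and 105701 in controls (1.28). Aldoc, an aldolase, had 141, 87.4 and 150.2 with DON and 10.6, 8.36 and 12.2 without Gln against 896, 1169 and 929.7 in controls (3.46). Both genes were below control in both treatments. The kinase and phosphatase genes that set fructose-2,6-bisphosphate were divided, with Pfkfb4 higher (2.17) and Pfkfb3 lower (-1.62).

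In the list of MondoA and HIF targets, 8 of 18 genes were higher and 4 lower. Txnip, an inhibitor of glucose uptake and a target of MondoA, had 1597, 821 and 1619 normalized counts with DON, 9575, 10762 and 11221 without Gln and 2158, 2264 and 1781 in controls (-3.03, standard error 0.18, adjusted p = 2.74e-09, limma). DON values were below and Gln-free values above the controls, with DON library 2 lowest. The related arrestin genes Arrdc3, at 457, 368 and 332 with DON and 2106, 1888 and 2045 without Gln, and Arrdc4 (-2.16) were lower as well. The HIF targets Ankrd37 (3.08), Adm (2.41) and Bnip3 (1.72) in the same list were higher, while the HIF target Egln3 was lower (-1.31).
The Txnip promoter is shown for its carbohydrate response element, a pair of E-box-like letters 5 bases apart (RefSeq, GRCm38.p6, chr3:96557707-96557956, plus strand, 250 bases before the start).
Txnip: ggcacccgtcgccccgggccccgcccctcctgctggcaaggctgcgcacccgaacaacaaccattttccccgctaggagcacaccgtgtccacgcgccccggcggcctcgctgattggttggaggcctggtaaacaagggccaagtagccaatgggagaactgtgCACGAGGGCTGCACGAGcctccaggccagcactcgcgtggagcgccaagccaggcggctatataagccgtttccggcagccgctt
The spelling in capitals, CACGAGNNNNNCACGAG, was taken from this promoter after it was seen, so its rarity (0.0037% of genes with an entry, on either strand) is no result.

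Genes of cytosolic ribosomal proteins were mostly higher with DON. Of 78 cytosolic ribosomal protein genes, 68 were higher with DON and 3 lower, with a median of 0.40 and a range from -0.62 to 1.53. Rplp0 had 226859, 231193 and 202953 normalized counts with DON and 93039, 97463 and 99866 without Gln (1.19), with controls between them, and Rpl37a had 1.53. These genes have many processed copies in the genome, with which reads may be shared. Ribosome biogenesis genes were more often lower, with 20 lower and 11 higher of 39. Nop58, a box C/D snoRNP protein, had 3645, 3629 and 3642 with DON, 11183, 10440.0 and 9585 without Gln and 3174, 3177 and 4349.8 in controls (-1.51), and Ubtf, a factor of RNA polymerase I, was lower (-1.28).

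Nuclear genes of the respiratory chain had 39 members higher and 11 lower of 72, with a median of 0.15, and the ATP synthase gene Atp5g2 had the largest difference (1.44). Of 10 mRNAs encoded by mitochondrial DNA, 0 were higher and 6 lower by limma, and the count higher was also 0 at an unadjusted p under 0.05 and by edgeR and DESeq2. mt-Cytb had 17298, 20608 and 19725 normalized counts with DON and 85198, 90754 and 81465 without Gln (-2.16), while mt-Co1 was not called (-0.12, 95% interval -0.25 to 0.01). mt-Co1 was called in 3 alternatives, among them without DON library 3 (adjusted p = 0.0189, limma). Another was quantile normalization, where its difference was -0.74, outside that interval (adjusted p = 9.55e-07, limma). In the NRF2 and glutathione list 15 of 26 were higher and 6 lower. The glutathione transferase gene Gstm1 (1.96) and the ferritin gene Ftl1 (1.18) were higher, and Gclc, which makes the first bond of glutathione, was lower (-0.87).

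Proliferation genes did not share a direction between the treatments. Mitotic genes had 12 members higher and 9 lower of 32, and the lower count was 14 without DON library 2. Replication and S phase genes had 14 and 12 of 36. Mki67 had 2089.7, 2246 and 1880.0 normalized counts with DON and 1608, 1286 and 1149.5 without Gln, against 5541, 7197 and 8990.4 in controls, while Top2a had 1793, 2251 and 1687 with DON and 3583, 3379 and 2912 without Gln, against 12703, 13746 and 16644. Both were below control in both treatments, Mki67 further without Gln and Top2a further with DON. The kinesin gene Kif23 was lower (-1.85) and the DNA ligase gene Lig1 higher (1.68). E2f1 was higher with DON (1.45) and E2f2 lower (-2.20). The cyclin D1 gene Ccnd1 had 8415, 8264 and 8013 with DON, 22760.2, 22328 and 22954 without Gln and 27634, 29750.4 and 25779 in controls (-1.46), and Cdk6 was lower in a similar degree (-1.45). Cdk4 was higher (1.01). Of 19 genes of G1 cyclins and CDK inhibitors 6 were higher and 11 lower. In the BCL2 family and death receptors 7 were higher and 13 lower of 25. Bmf, a BH3-only killer protein, had 350.4, 203 and 366 with DON, 31.7, 39.7 and 58.7 without Gln and 1243, 1443 and 1266 in controls (2.79), and the survival gene Bcl2 had 168, 177 and 255 with DON, 757, 815 and 827 without Gln and 863, 782 and 1039 in controls (-2.02).

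Identity genes of the epithelium were lower with DON than without Gln in most cases. Of 22 epithelial and junction genes 16 were lower and 4 higher, with a median of -0.99. Krt7 had 7905, 8951 and 7868 normalized counts with DON and 27328, 25241 and 27348 without Gln, both below the controls at 84558, 82950.3 and 63888, and the gap junction gene Gjb2 (-2.35) was lower. Muc1 (1.17) and Lgals4 (1.42) were higher. Mesenchymal genes were more often lower, with 12 lower and 5 higher of 17. Ccn2, a secreted matrix protein, had 477, 525 and 469.6 with DON, 1295, 1237 and 1269 without Gln and 4469, 4989 and 4024 in controls (-1.37). Fn1, fibronectin, was higher, at 19910.2, 14390.5 and 25667 with DON and 5300.0, 5459.8 and 8418 without Gln (1.64), and S100a4 (2.91) and Vim (0.93) were higher as well.

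Long genes were more often lower in DON than in Gln-free cells. Among 11644 protein-coding genes placed in GENCODE vM21, the median difference was 0.28 for the 233 genes that span at most 2 kb and decreased with each class of span to -0.42 for the 509 genes over 200 kb. In the shortest class 47.6% of genes were called higher and 21.5% lower, and in the longest class 21.0% higher and 56.4% lower. The Spearman correlation of span and difference across these genes was -0.21, which is a description, since genes share libraries and are not replicates. Among genes with a mean of at least 100, each DON library showed it against the mean of the Gln-free libraries. The median gap was 0.27, 0.27 and 0.20 for 917 genes of up to 5 kb and -0.43, -0.44 and -0.35 for 406 genes over 200 kb. Side by side with control cells, the longest class had a median of -0.42 with DON and 0.10 without Gln.

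**Figure D5:**
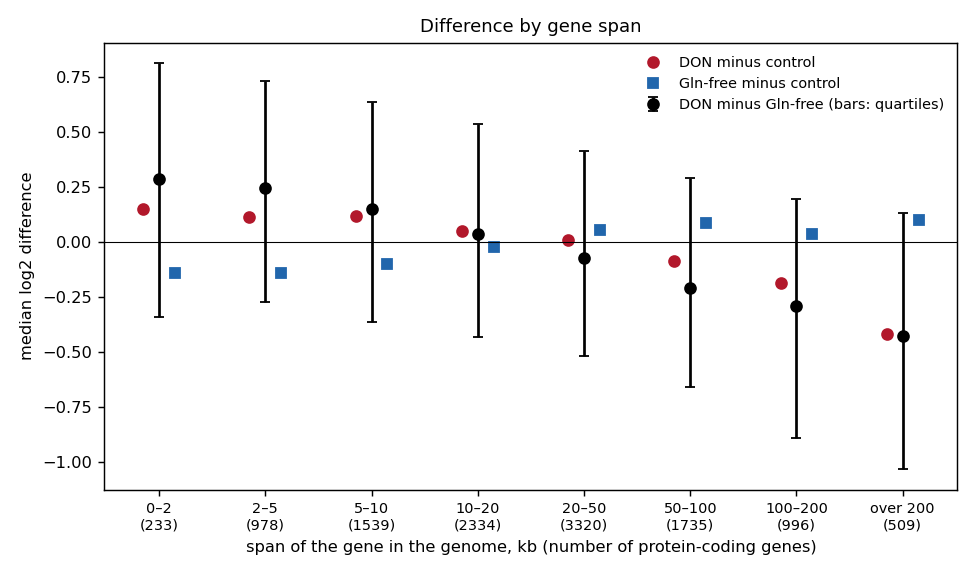
Median log2 difference (vertical axis) of protein-coding genes in 8 classes of genomic span in kb (horizontal axis, number of genes in brackets), for DON minus Gln-free (black, bars from the first to the third quartile), DON minus control (red) and Gln-free minus control (blue). The black medians run from 0.28 in the shortest class to -0.42 in the longest, and the red medians fall below 0 in the classes over 50 kb while the blue ones do not.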

How the data were processed

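The deposited signal values are gene counts that the authors divided by 1 DESeq2 size factor per library, with a separate table for each treatment against the same 3 control libraries (headed VEH, matched here to the CNT samples). Alignment was by HISAT2 per the methods, and the submitters' processing notes name GRCm39. STAR 2.5 is also named among the upstream tools, and which aligner gave these counts is not settled here. Whether strand was used and the counting tool are not given in the sources used here. Reads were recovered by finding the step of the values in each column, which gave whole numbers for 99.996% to 100% of values per column (tolerance 0.0051), and the 3 control libraries had the same reads in both tables for 55291 of 55291 genes. Even numbers made up 69.6% to 72.7% of the values from 1 to 20 reads, and if both mates of a pair were counted, the fragments would be fewer than the read numbers printed. Reads without molecular identifiers are not independent molecules. The tumor tables, FPKM values and the authors' own fold changes and p-values were not used.

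Reads of 9 libraries were scaled by joint median-of-ratios factors and tested on log2(value + 1) with limma 3.58.1 (lmFit, eBayes with trend, R 4.3.3) in the 6 treated libraries, after a test on simulated data. Alternatives included edgeR 4.0.16 and DESeq2 1.42.0. Gene lists and their member genes were chosen with earlier results of these data known. Genes named are the 12 largest differences each way (adjusted p under 0.05, mean at least 100, no overlap), up to 4 called members each way per list, further members of lists described whole, genes that the study names, and the 8 largest differences on opposite sides of control. Promoters are RefSeq's (GRCm38.p6) and gene positions GENCODE's, from symbols. The files used give no coordinates. Some genes are not reported here. Tables and plots used Python 3.11, pandas 2.3.3 and matplotlib 3.10.9.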

Additional observations from a re-analysis of the deposited data

How the results depend on the processing

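The number of genes called was 7844 to 9312 over the 22 alternatives, which were other scalings, tests, filters, pseudocounts, a threshold of 0.01, a replicate block and leaving out each library in turn. Without 1 library it was 8586 to 8898, with 4182 to 4376 higher and 4329 to 4616 lower, and 2920 to 3081 at least 2-fold. edgeR with TMM called 9188 genes, DESeq2 9029, and edgeR on reads divided by 2, an alternative chosen after seeing the data, 9243. With a filter at a mean of 100 the genes called and at least 2-fold numbered 1939 of 10273 tested, since fewer genes were tested. The share of calls that were higher in DON stayed within 10 percentage points in every scaling. Replicate numbers did not pair the samples: deviations of same-numbered libraries correlated at -0.02, -0.01 and 0.25, not every library was closest to its own number, and with a replicate block 9237 genes were called.

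Of 331 called genes that the rule chose or the text names, 311 kept the call and direction under every alternative, 20 lost the call under at least 1, and 0 reversed. Of the genes not called, Ctps changed sign to -0.016 with the tables joined by the ratio of the control columns and was -0.058 to 0.083 without 1 library (below 0 without DON library 2 or Gln-free library 3), and Gls2 was -0.26 to 0.0072 without 1 library (above 0 without DON library 2). Quantile normalization moved the counts of some lists by over 1.5 times, from 7 to 4 genes lower in purine synthesis, from 3 to 5 higher in pyrimidine and deoxynucleotide synthesis, from 3 to 7 lower among ribosomal proteins and from 11 to 6 lower in the respiratory chain (7 with a threshold of 0.01 or without Gln-free library 1). The 2 cholesterol genes lower were 1 in 7 alternatives, because Sc5d lost its call. Receptor genes called higher were 3 in place of 5 with no trend of the prior variance. The list medians moved by over 1.5 times under some settings too: the epithelial median was -0.64 with no filter, and under quantile normalization the purine synthesis median was -0.06 and the respiratory chain median 0.27. The cause of these shifts was not tested. With 25224177 reads or more in each library, no library was thinned, so where depth limits the calls was not tested.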

Other observations

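The sensor genes Cgas and Ddx58 were lower in DON cells, while the interferon and MHC class I list as a whole was divided, with 7 genes higher and 7 lower of 17. Cgas, the DNA sensor, had 77.4, 71.0 and 60.2 normalized counts in DON libraries, 422, 349 and 487 in Gln-free libraries and 127, 136 and 196 in controls (-2.57). Ddx58, the RNA sensor RIG-I, had 117, 110.1 and 111 with DON and 507, 499 and 423 without Gln (-2.07). Nlrc5, which activates MHC class I genes, had -2.72 and lost its call under at least 1 alternative, and the interferon factor Irf7 was higher (1.64). The MHC class I chain gene H2-K1, one of a family of similar genes, was lower (-0.84) and B2m, its partner, was higher (0.91). The median of the list was -0.36 and changed sign to 0.26 with a filter at a mean of 100, and without DON library 3 it was -0.03.

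Of 17 clock genes 10 were lower with DON and 3 higher, led by Hlf, a PAR bZIP factor (-3.29). Per2 had 280.1, 265 and 281 normalized counts with DON, 1091, 1039.7 and 1054 without Gln and 364, 305 and 332 in controls (-1.94), and Nr1d1, which encodes REV-ERBα, had 805, 832 and 876 with DON, 3255, 3770.2 and 2976 without Gln and 398, 512 and 439 in controls (-1.99). Nfil3 was higher (1.07). Hours of harvest are not given in the labels. Of 17 genes of histone methylation and chromatin dioxygenases, the latter being users of α-ketoglutarate, 10 were lower and 3 higher, with Kdm7a at -1.88 and the methyltransferase gene Ezh2 at -1.07. In p53 targets 7 were higher and 8 lower of 22, with Btg2 the lowest (-2.26).

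Host transcripts of small nucleolar RNAs were divided, with 8 higher and 6 lower of 16. Snhg1 had 25021, 29261 and 23219 normalized counts with DON, 15608, 14242 and 13990.1 without Gln and 842, 743 and 1072 in controls (0.82), Snhg8 had 1.80 and Snhg15 was lower (-1.27). By biotype, the median difference was 0.56 over 265 lincRNAs, 0.77 over 60 lncRNAs of bidirectional promoters and -0.04 over 11644 protein-coding genes, and 39.2% of lincRNAs were called higher and 17.4% lower. Other classes had medians above 0 too, among them antisense transcripts (0.34), processed transcripts (0.46) and processed pseudogenes (0.25). The lincRNAs had a median level of 42.9 normalized counts and the protein-coding genes 985.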
